A study of Mus musculus with 31 samples.

Results

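Endothelial marker genes, active in the cell layer that lines blood vessels, were followed through the sorted cells of the newborn mouse pancreas. The 10 genes are Kdr, Flt1, Tek, Tie1, Cdh5, Pecam1, Esam, Cldn5, Emcn and Egfl7, and they were picked out by gene symbol, with no threshold on a measured value, though the list was drawn up with earlier results of these data known. All 10 were found among the 38283 genes listed in each table.

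Endothelial cells sense vascular endothelial growth factors through the receptor tyrosine kinases Kdr (VEGFR-2, the main signalling receptor) and Flt1 (VEGFR-1, which binds ligand tightly and signals weakly). They sense angiopoietins through Tek (Tie2), with the related receptor Tie1 as its partner. Neighbouring cells are joined by the adhesion proteins Cdh5 (VE-cadherin), Pecam1, Esam and Cldn5, while Emcn is a mucin-like surface glycoprotein and Egfl7 a secreted matrix protein. In the developing pancreas, vessels lie close to both the epithelium and the surrounding mesenchyme.

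The study sorted pancreas cells of C57BL/6 mice at postnatal day 2 into YFP+ mesenchymal and YFP- non-mesenchymal cells, and asked how expression changes when the growth factor gene Igf2 is deleted or raised in the mesenchyme. Every group carried Nkx3.2 Cre, whose activity defines the targeted cells. In the H19DMD model, controls were H19DMD+/+; Nkx3.2+/Cre and mutants H19DMDfl/+; Nkx3.2+/Cre, with 3 control and 4 mutant libraries of each sorted fraction. In the Igf2 model, controls were Igf2+/+; Nkx3.2Cre/+ and mutants Igf2+/fl; Nkx3.2Cre/+, with non-mesenchymal libraries from 4 controls and 3 mutants. The other 10 of the 31 samples, including the mesenchymal cells of the Igf2 model, were not analysed here. H19DMD is the imprinting control region shared by H19 and Igf2. Whether libraries of a group came from separate animals or pools was not stated, so the p-values measure only the spread between these libraries.

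The promoters of the growth factor receptors are shown here because Kdr and Tek separated the sorted fractions most completely, and because Flt1 and Tie1, their paralogues, did so less. Each is the 250 bases before the RefSeq start on GRCm38.p6, written 5′ to 3′ on the gene's strand. Capitals mark matches to CAGGAA or CCGGAA on either strand, which are GGAA with a fixed flank. GGAA is the core bound by ETS factors, a family that includes known regulators of endothelial genes.
Kdr, chr5:75978456-75978705, minus strand: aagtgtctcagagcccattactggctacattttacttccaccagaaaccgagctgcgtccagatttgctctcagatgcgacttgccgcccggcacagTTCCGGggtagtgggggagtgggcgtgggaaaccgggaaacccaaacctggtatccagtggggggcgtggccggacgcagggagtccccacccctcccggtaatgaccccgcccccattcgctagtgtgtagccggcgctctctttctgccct
Flt1, chr5:147726012-147726261, minus strand: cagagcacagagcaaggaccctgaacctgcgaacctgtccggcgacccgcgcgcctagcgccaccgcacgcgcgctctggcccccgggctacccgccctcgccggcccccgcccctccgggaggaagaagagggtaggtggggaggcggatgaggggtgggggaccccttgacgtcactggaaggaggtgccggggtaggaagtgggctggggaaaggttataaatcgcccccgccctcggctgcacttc
Tek, chr4:94739039-94739288, plus strand: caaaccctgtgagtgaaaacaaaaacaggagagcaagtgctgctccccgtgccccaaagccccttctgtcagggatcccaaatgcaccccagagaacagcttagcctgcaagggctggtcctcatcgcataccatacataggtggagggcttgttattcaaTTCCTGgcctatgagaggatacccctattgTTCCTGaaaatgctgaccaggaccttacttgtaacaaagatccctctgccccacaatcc
Tie1, chr4:118489850-118490099, minus strand: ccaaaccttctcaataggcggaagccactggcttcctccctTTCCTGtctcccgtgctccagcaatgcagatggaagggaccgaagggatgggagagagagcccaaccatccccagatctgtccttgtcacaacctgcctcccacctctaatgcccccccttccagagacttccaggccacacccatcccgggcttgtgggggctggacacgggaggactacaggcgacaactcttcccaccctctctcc
RefSeq promoters were matched for 7 of the 10 genes, with 9 windows in all since Egfl7 has 3 starts in the table. Either motif occurred in 6 of the 9 windows and in the promoters of 5 of the 7 genes, Kdr, Tek, Tie1, Emcn and Egfl7. Over all 32851 RefSeq promoter windows of that length, 35.1% held either motif, 25.7% CAGGAA and 12.03% CCGGAA. Flt1 and Cldn5 held neither, though the Flt1 window holds GGAA with other flanks, which were not counted. The GATA core AGATAA and the SOX core ACAATG were found in none of the 9 windows, against 9.99% and 10.7% of all windows. A match is only a match of letters.

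Values are FPKM, reads scaled by transcript length and by library, and differences are of log2(FPKM + 1), a scale on which changes of low genes look smaller. Libraries listed 17476 to 19352 genes above 0 in the H19DMD table and 19199 to 20918 in the Igf2 table. The 3 highest features held 38.2 to 58.2% and 60.5 to 82.5% of the FPKM total. The sort was checked by 9 mesenchymal marker genes, whose summed level was 4808 to 6256 FPKM in mesenchymal and 32.6 to 122 FPKM in non-mesenchymal libraries of the H19DMD model. Igf2 itself was at 3648 to 4024 FPKM in the mesenchymal H19DMD controls and 6162 to 7923 in the mutants, while H19 was at 2437 to 2454 and 565 to 835. In the non-mesenchymal cells of this model Igf2 was at 45.2 to 53.2 FPKM (median 46.2) in controls and 45.4 to 157 FPKM (median 115) in mutants. The Igf2 deletion could not be checked here, since the cells that carry it were not analysed. In bulk RNA, fewer cells of a type and less RNA per cell cannot be told apart, so none of the values below is a count of endothelial cells.

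**Figure D1:**
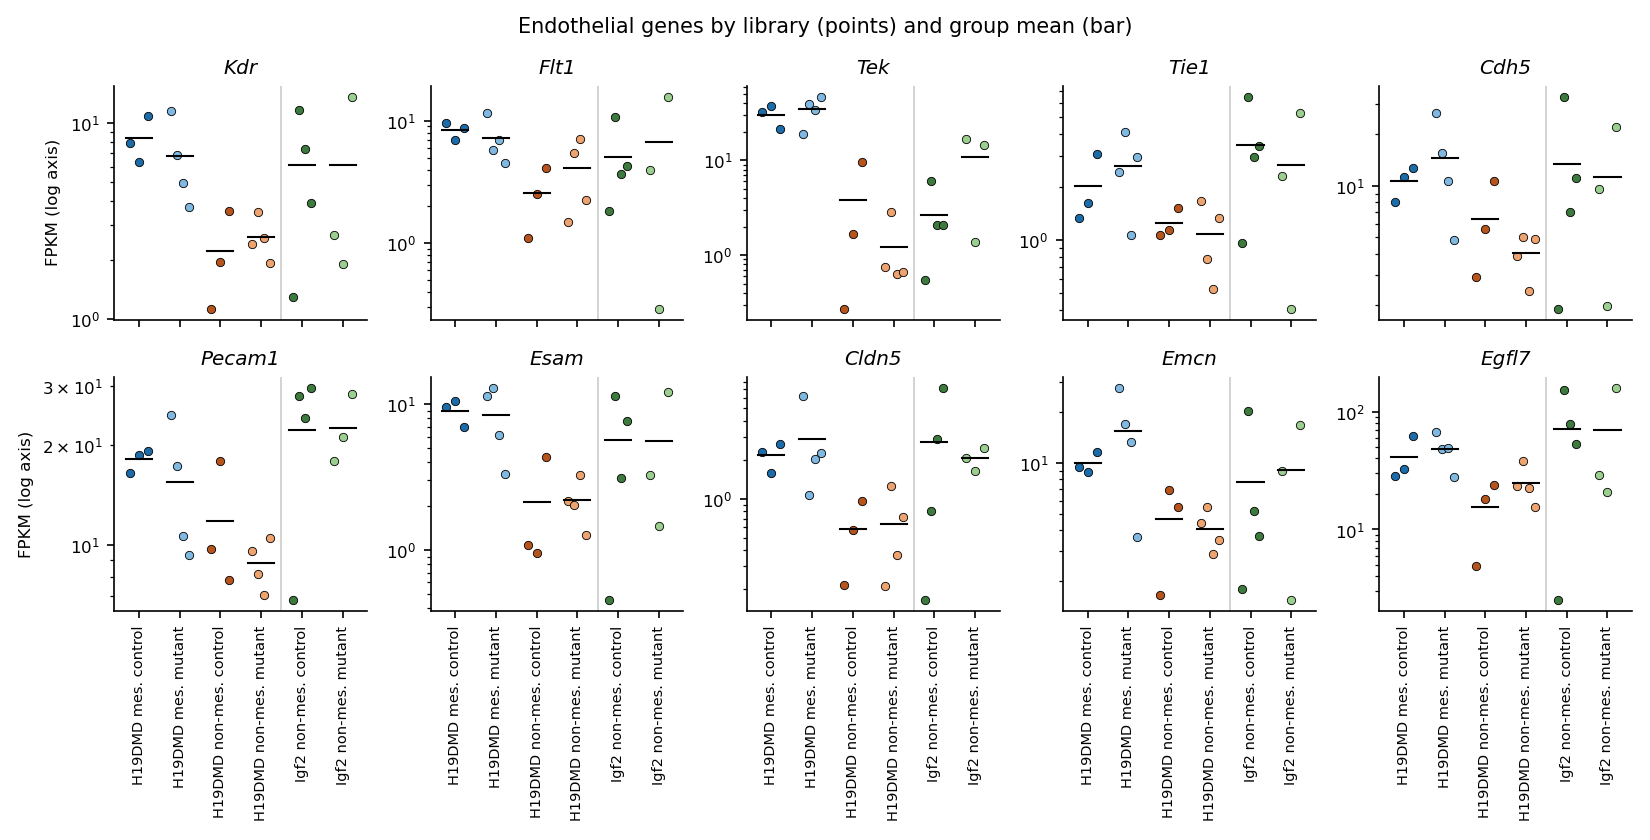
FPKM (log axis) of the 10 endothelial genes in each library (points, in order of replicate number) by group, with the group mean as a bar; mes. is mesenchymal, non-mes. non-mesenchymal, and the grey line divides the H19DMD table from the separate Igf2 table. Tek spans 19.1 to 47.2 FPKM in the 7 mesenchymal libraries and at most 9.52 in the 7 non-mesenchymal libraries of the H19DMD model.

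The first comparison asked where the endothelial genes are found after the sort. In the H19DMD model all 10 had higher mean levels in the YFP+ mesenchymal fraction than in the YFP- fraction, in controls and again in mutants, and 4 of 10 passed the test in each. Tek stood out by size, with a mean level second to that of Egfl7 in mesenchymal cells and lower than those of 4 or more members in non-mesenchymal ones.

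Kdr (chr5:75932827-75978458, minus strand) was measured at 7.91, 6.35 and 10.8 FPKM in the 3 mesenchymal controls and at 1.12, 1.96 and 3.55 FPKM in the 3 non-mesenchymal controls. Every mesenchymal library was above every non-mesenchymal one. The difference was 1.59 (SE 0.35) on the log2(FPKM + 1) scale, with an adjusted p of 0.0239 (limma, two-sided, Benjamini-Hochberg over 16732 genes). In mutants Kdr was at 11.5, 6.83, 4.93 and 3.73 FPKM in mesenchymal and 2.42, 3.50, 2.58 and 1.93 FPKM in non-mesenchymal libraries. The groups again did not overlap, though mesenchymal mutant 4 lay close to the highest non-mesenchymal library. The log2 difference was 1.02 (SE 0.32), adjusted p = 0.0441 by limma.

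Flt1 (chr5:147561604-147726011, minus strand), the second VEGF receptor, read 9.54, 6.93 and 8.69 FPKM in mesenchymal and 1.10, 2.52 and 4.11 FPKM in non-mesenchymal controls, again without overlap. It was higher in the mesenchymal fraction by 1.47 (SE 0.36), adjusted p = 0.0342 by limma. Its mutant libraries overlapped, at 11.5, 5.78, 7.01 and 4.49 FPKM in mesenchymal and 1.49, 5.50, 7.06 and 2.26 FPKM in non-mesenchymal cells. Non-mesenchymal mutants 2 and 3 were as high as mesenchymal mutants 2 and 3, and the log2 difference of 0.78 (SE 0.43) did not pass the test (adjusted p = 0.220, limma).

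Tek (chr4:94739289-94874976, plus strand) showed the widest separation of the 10. Mesenchymal controls were at 32.1, 37.5 and 21.3 FPKM and non-mesenchymal controls at 0.269, 1.65 and 9.52 FPKM, of which only the third came near the mesenchymal range. The log2 difference was 3.22 (SE 0.77), adjusted p = 0.0314 by limma. In mutants Tek was at 19.1, 39.5, 34.0 and 47.2 FPKM in the mesenchymal fraction and 0.756, 2.83, 0.628 and 0.666 FPKM in the non-mesenchymal one. The lowest mesenchymal mutant was above every non-mesenchymal library of the table, and the log2 difference was 4.05 (SE 0.37), adjusted p = 9.44e-05 by limma, with an exact permutation p of 0.0286 that is the smallest 4 against 4 libraries can give. Tek was the only member whose call in the mutants was kept when any 1 library was left out.

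Tie1 (chr4:118471191-118490061, minus strand), the partner receptor of Tek, did not separate the fractions as Tek did. It was low throughout, at 1.33, 1.63 and 3.08 FPKM in mesenchymal and 1.07, 1.14 and 1.53 FPKM in non-mesenchymal controls. Mesenchymal control 3 was high and the other values lay close together, so the groups overlapped. The log2 difference was 0.38 (SE 0.31, adjusted p = 0.446, limma). Mutants read 2.42, 4.11, 1.07 and 2.96 FPKM against 1.67, 0.782, 0.528 and 1.33 FPKM, with a log2 difference of 0.77 (SE 0.34, adjusted p = 0.139, limma).

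Among the junction genes, Esam (chr9:37528078-37538319, plus strand), an immunoglobulin-like adhesion molecule of endothelial tight junctions, was at 9.53, 10.5 and 7.01 FPKM in mesenchymal and 1.08, 0.959 and 4.38 FPKM in non-mesenchymal controls. The groups did not overlap, and the log2 difference was 1.82 (SE 0.44), adjusted p = 0.0327 by limma. In mutants Esam was at 11.3, 12.9, 6.12 and 3.34 FPKM against 2.15, 2.04, 3.29 and 1.28 FPKM. Mesenchymal mutant 4 was the lowest of its group and only just above non-mesenchymal mutant 3, and the log2 difference of 1.46 (SE 0.40) passed the test (adjusted p = 0.0267, limma).

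Cdh5 (chr8:104101625-104144511, plus strand), the cadherin of endothelial adherens junctions, was at 8.04, 11.3 and 12.8 FPKM in mesenchymal and 2.91, 5.59 and 10.7 FPKM in non-mesenchymal controls. Non-mesenchymal control 3 fell within the mesenchymal range, and the log2 difference was 0.78 (SE 0.43, adjusted p = 0.261, limma). In mutants it was at 26.8, 15.5, 10.7 and 4.84 FPKM against 3.89, 5.03, 2.41 and 4.86 FPKM. Mesenchymal mutant 4 was as low as the non-mesenchymal libraries, yet the log2 difference of 1.44 (SE 0.46) passed the test (adjusted p = 0.0479, limma). Leaving out any of the other 7 mutant libraries ended that call.

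Pecam1 (chr11:106654217-106750628, minus strand), an adhesion molecule also carried by platelets and leukocytes, was at 16.4, 18.6 and 19.1 FPKM in mesenchymal and 9.72, 17.8 and 7.84 FPKM in non-mesenchymal controls, where the second library lay inside the mesenchymal range. Mutants were at 24.6, 17.3, 10.7 and 9.32 FPKM against 9.56, 8.20, 7.09 and 10.5 FPKM. The log2 differences were 0.65 (SE 0.31) and 0.66 (SE 0.30), and neither passed the test (adjusted p = 0.198 and 0.146, limma).

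Cldn5 (chr16:18776847-18778262, plus strand), a claudin that seals endothelial tight junctions, was the lowest member in the non-mesenchymal fraction. It read 2.30, 1.57 and 2.63 FPKM in mesenchymal and 0.214, 0.575 and 0.963 FPKM in non-mesenchymal controls, without overlap, and 6.27, 1.07, 2.02 and 2.27 FPKM against 0.210, 1.27, 0.369 and 0.722 FPKM in mutants, where mesenchymal mutant 2 fell below non-mesenchymal mutant 2. The log2 differences were 1.01 (SE 0.32) and 1.13 (SE 0.42, adjusted p = 0.0755 and 0.0836, limma).

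Emcn (chr3:137341067-137432185, plus strand) was at 9.47, 8.81 and 11.7 FPKM in mesenchymal and 1.66, 6.91 and 5.49 FPKM in non-mesenchymal controls, with every mesenchymal library higher. The log2 difference of 1.09 (SE 0.44) did not pass the adjusted test (adjusted p = 0.141, limma). In mutants it was at 27.7, 17.1, 13.2 and 3.63 FPKM against 4.41, 5.46, 2.88 and 3.49 FPKM, a log2 difference of 1.45 (SE 0.52, adjusted p = 0.0703, limma). Mesenchymal mutant 1 had the highest value of the model and mutant 4 one within the non-mesenchymal range.

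Egfl7 had the highest mean of the 10 in all 6 groups. It was at 28.5, 32.4 and 61.5 FPKM in mesenchymal and 4.86, 18.0 and 23.8 FPKM in non-mesenchymal controls, which did not overlap. Mutants read 67.5, 47.9, 49.3 and 27.7 FPKM against 23.5, 38.0, 22.5 and 15.6 FPKM, where the non-mesenchymal mutant 2 exceeded mesenchymal mutant 4. The log2 differences of 1.49 (SE 0.61) and 0.92 (SE 0.33) missed the threshold (adjusted p = 0.145 and 0.0718, limma). Egfl7 lies at chr2:26580014-26593120 on the plus strand in GENCODE M21 (GRCm38), where Agpat2 on the opposite strand and Gm20532 and the microRNA gene Mir126a on the same strand overlap its exons. The use of strand in counting was not given in the sources used here, and the deposited position of Egfl7, 26580014 to 26636497, spans Agpat2 and Gm20532 too, so its level is uncertain to that extent. Gm20532 was at no more than 0.559 FPKM in any library, while the level of Agpat2 is not given here. The deposited position of Egfl7 was also that of Fam69b and Mir126, and the one of Pecam1 was shared by U3. Cdh5 likewise overlaps the antisense gene Gm29682.

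**Figure D2:**
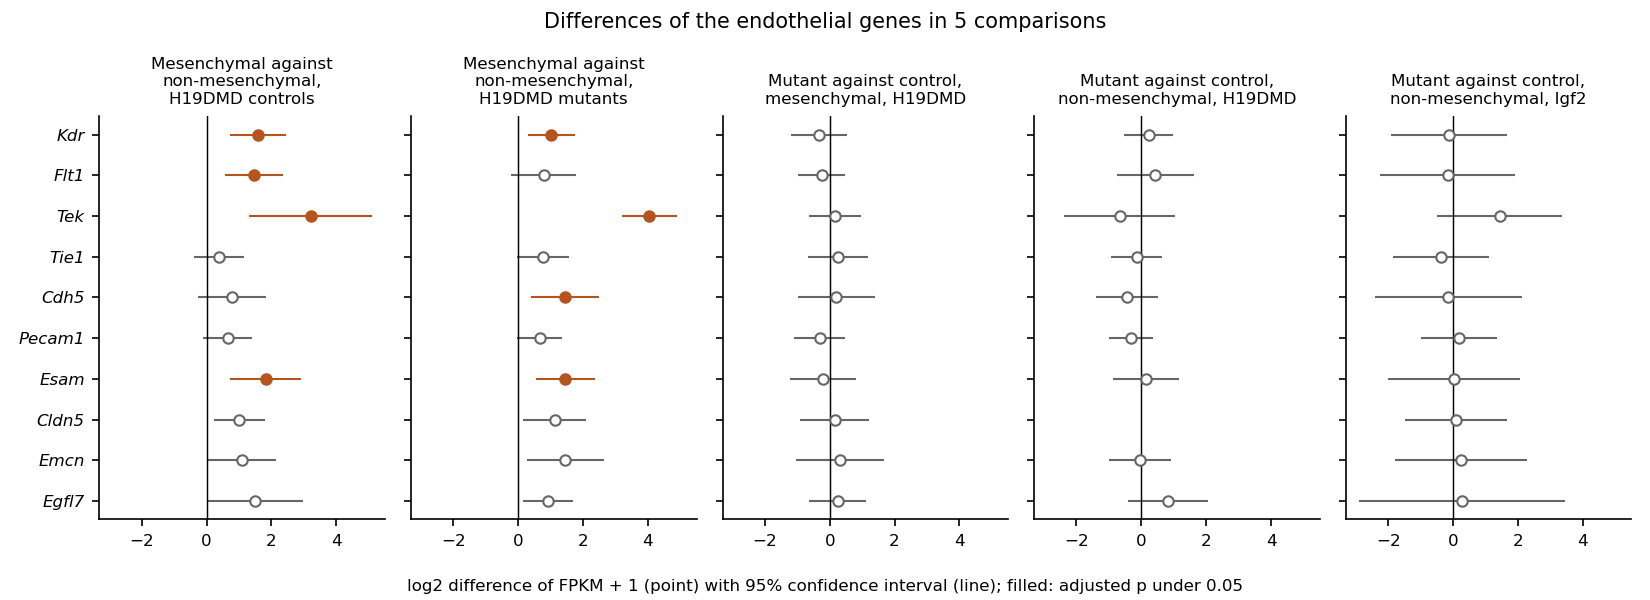
Log2 difference of FPKM + 1 for each gene (point) with its 95% confidence interval from limma (line) in 5 comparisons, filled where the adjusted p was under 0.05; Cldn5 was not tested in non-mesenchymal H19DMD cells because its mean was under 1 FPKM. All 10 points lie above 0 in both fraction comparisons, with Tek at 3.22 and 4.05, and the intervals of all members tested span 0 in the 3 mutant comparisons.

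In controls, 4 of 10 members passed the test as higher in mesenchymal cells, against 12.4% of all genes tested, and 7 of 10 had groups that did not overlap, against 22.4% of all genes. The exact permutation test cannot go below p = 0.1 with 3 against 3 libraries. Their median log2 difference was 1.28, beside 0.08 over all genes. In mutants 4 of 10 passed, against 13.5% of all genes, and 3 of 10 did not overlap, against 14.4%. The median was 1.08, beside -0.03 over all genes. Calls rested on few libraries: in controls the count was 0 without mesenchymal control 1, mesenchymal control 3 or non-mesenchymal control 1, 1 without mesenchymal control 2 or non-mesenchymal control 2, and 4 without non-mesenchymal control 3. In mutants it was 1 without mesenchymal mutant 1 or 2 or non-mesenchymal mutant 1 or 4, 2 without non-mesenchymal mutant 2 or 3, 3 without mesenchymal mutant 3 and 6 without mesenchymal mutant 4. With libraries of the same replicate number treated as a block, only Kdr was called in controls. The adjusted p was then 0.0348 for Kdr, 0.0792 for Flt1, 0.0804 for Tek and 0.0929 for Esam (limma). In mutants the block left Tek, Esam and Egfl7 called, and no longer Kdr (adjusted p = 0.0549) or Cdh5 (0.0731, limma). The sign of all 10 differences was positive in both comparisons under every alternative run.

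When the fraction difference was averaged over controls and mutants, a fit added after the data were seen that uses all 14 libraries, 9 of 10 members passed the test, against 20.1% of all genes as higher. Tie1 was the exception at 0.58 (SE 0.24, adjusted p = 0.0737, limma). The estimates ran from 0.66 (SE 0.23) for Pecam1 and 1.07 (SE 0.28) for Cldn5 to 1.30 (SE 0.24) for Kdr, 1.64 (SE 0.31) for Esam and 3.63 (SE 0.42) for Tek (adjusted p = 0.0365, 0.00913, 8.55e-04, 9.73e-04 and 1.54e-05, limma). In Kdr and Tek all 7 mesenchymal libraries were above all 7 non-mesenchymal libraries, which held for 10.4% of all genes tested.

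Other cell types moved across the same sort, and their part in these differences was not tested. Summed over the 11 leukocyte markers, the level was 17.8 to 70.5 FPKM in mesenchymal and 438 to 822 FPKM in non-mesenchymal H19DMD libraries. Cd68, a macrophage gene named after its values were seen, was the leading gene in all 7 mesenchymal libraries, and the rest of the list summed to 3.89 to 13.9 FPKM in them. The 11 pericyte and smooth muscle markers summed to 248 to 956 FPKM in mesenchymal libraries and 15.5 to 27.0 FPKM in non-mesenchymal ones. Acinar markers summed to 572 to 1798 FPKM in the mesenchymal fraction against 39523 to 104901 FPKM. The 10 endothelial genes themselves summed to 109 to 209 FPKM in mesenchymal and 24.0 to 72.6 FPKM in non-mesenchymal libraries, without overlap. That separation rested on Tek. It gave 47.2 FPKM of the lowest mesenchymal sum, in mutant 4, and 2.83 FPKM of the highest non-mesenchymal sum, in mutant 2. Without Tek the sums of these libraries would change order.

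**Figure D3:**
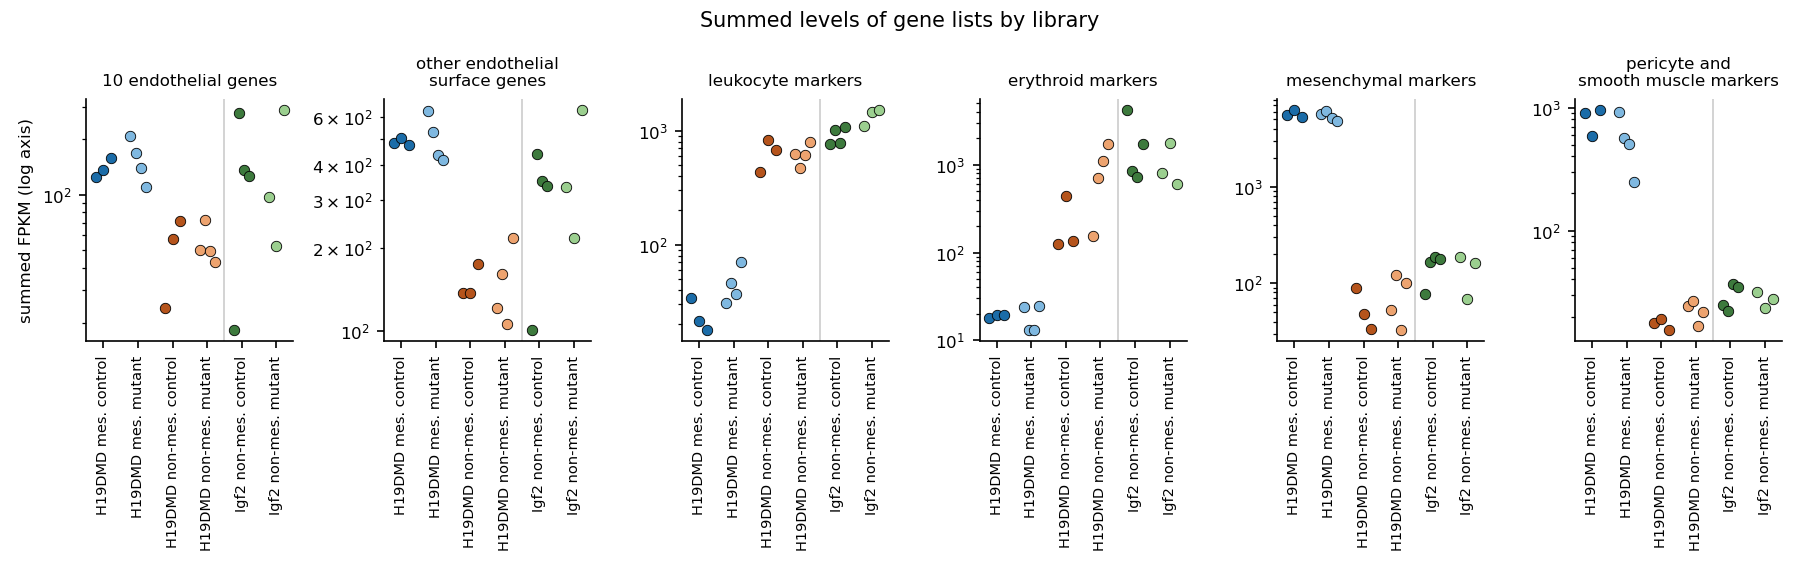
Summed FPKM (log axis) of the 10 endothelial genes and of 5 other gene lists in each library (points) by group, with labels as in the plot of levels by library. In the H19DMD model both endothelial lists are higher in mesenchymal libraries, while the leukocyte and erythroid lists are higher in non-mesenchymal ones.

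The second comparison asked whether raised Igf2 in the mesenchyme came with a change of the endothelial genes in the mesenchymal fraction itself. No change passed the test for any of the 10. None had an adjusted p under 0.05 by limma, against 0.0694% of 15856 genes, none had an unadjusted p under 0.05, against 4.76% of all genes, and none had groups that did not overlap, against 5.39%. The log2 differences of mutant against control ran from -0.34 for Kdr to 0.32 for Emcn, with a median of 0.16 beside -0.07 over all genes. The exact permutation test, which in 3 against 4 libraries can give no p below 0.0286, passed for no member either.

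The intervals show what these libraries could have missed. For Tek the 95% interval of the log2 difference was -0.64 to 0.98, for Kdr -1.21 to 0.52 and for Flt1 -0.98 to 0.47. Emcn had the widest, -1.05 to 1.69, with mutants at 27.7, 17.1, 13.2 and 3.63 FPKM around controls of 9.47, 8.81 and 11.7 FPKM. Mutant spread was larger than control spread for all 10 genes but Egfl7: Pecam1 was at 18.1 ± 1.43 FPKM (SD, n = 3) in controls and 15.5 ± 7.03 FPKM (SD, n = 4) in mutants, and Cdh5 at 10.7 ± 2.43 FPKM (SD, n = 3) and 14.5 ± 9.33 FPKM (SD, n = 4).

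That spread was shared between genes. Mesenchymal mutant 1 had the highest value of its group for 7 of the 10 members and mutant 4 the lowest for 7 of 10. The summed level was 209 FPKM in mutant 1 and 109 FPKM in mutant 4. Tek ran the other way, lowest in mutant 1 at 19.1 FPKM and highest in mutant 4 at 47.2 FPKM. Pericyte and smooth muscle markers were also lowest in mutant 4, with a sum of 248 FPKM against 508 to 912 FPKM in the other mutants and the lowest value for 8 of 11 genes, and the part of these cells was not tested. The leukocyte sum was led by Cd68, at 64.5 FPKM in mutant 4, and the other 10 leukocyte genes summed to 6.00 FPKM there and 5.50 to 13.9 FPKM in the other mutants.

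In the non-mesenchymal cells of the H19DMD model, sorted as lacking YFP, again no difference between mutants and controls passed the test. Of the 9 members tested, none passed the limma test, against 0.0677% of 16239 genes, none had an unadjusted p under 0.05, against 5.35%, and none was without overlap, against 5.68%. The log2 differences ran from -0.67 for Tek, with a 95% interval of -2.39 to 1.05, to 0.82 for Egfl7, with -0.42 to 2.06. The median was -0.05, beside 0.05 over all genes. The tenth member, Cldn5, was at 0.584 ± 0.375 FPKM (SD, n = 3) in controls and 0.641 ± 0.468 FPKM (SD, n = 4) in mutants, under the mean of 1 FPKM needed for the test.

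Control libraries of this fraction spread widely. Non-mesenchymal control 1 had the lowest value for 8 of the 10 members and control 3 the highest for 8 of 10, with Tek at 0.269 FPKM in the former and 9.52 FPKM in the latter. Without control 3 the log2 difference of Tek was 0.17, and with it -0.67, so 1 library set its direction.

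Whether the effect of H19DMD deletion on these genes differed between the fractions was tested as an interaction. No member passed by limma, against 0.0117% of 17105 genes, and none had an unadjusted p under 0.05, against 6.35%. The estimates ran from -0.69 for Flt1 (95% interval -2.02 to 0.65) to 0.83 for Tek (-0.99 to 2.66), with a median of 0.07 beside -0.11 over all genes.

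The third question was whether Igf2 deletion in the mesenchyme altered the endothelial genes of the neighbouring non-mesenchymal cells. No difference was called: none passed the limma test, against 0.0631% of 17441 genes, none had an unadjusted p under 0.05, against 5.28%, and in none did the groups stay apart, against 6.02%. The median log2 difference was 0.06, beside -0.03 over all genes. The intervals were wide, and the range within each group was larger than the difference between groups for all 10.

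Kdr was at 1.29, 11.7, 7.41 and 3.92 FPKM in the 4 controls and 2.69, 1.90 and 13.7 FPKM in the 3 mutants. Both groups ran from below 2 FPKM in 1 library to above 11 FPKM in another, and the log2 difference was -0.13 with a 95% interval of -1.91 to 1.66. Flt1 was at 1.82, 10.6, 3.66 and 4.30 FPKM in controls and 3.98, 0.290 and 15.8 FPKM in mutants. Its lowest and its highest library were both mutants, and the interval of the log2 difference was -2.24 to 1.91.

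Tek had the largest difference of the 10. It was at 0.541, 6.02, 2.07 and 2.08 FPKM in controls and 16.9, 1.37 and 14.6 FPKM in mutants. Mutants 1 and 3 were above every control and mutant 2 was below 3 of 4 controls. The log2 difference was 1.45 (SE 0.82) with an interval of -0.48 to 3.38, and it did not pass (unadjusted p = 0.118, adjusted p = 0.919, limma). Tie1 was at 0.963, 6.50, 2.97 and 3.40 FPKM in controls and 2.32, 0.407 and 5.25 FPKM in mutants, with a log2 difference of -0.38 and an interval of -1.86 to 1.10.

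Of the junction genes, Cdh5 and Esam had wide ranges in both groups. Cdh5 was at 1.90, 33.3, 7.04 and 11.2 FPKM in controls and 9.60, 1.98 and 22.2 FPKM in mutants. Esam was at 0.450, 11.4, 3.13 and 7.72 FPKM in controls and 3.26, 1.46 and 12.1 FPKM in mutants. In both genes control 1 and mutant 2 were low while control 2 and mutant 3 were high, and the log2 differences were -0.14 for Cdh5 (interval -2.41 to 2.13) and 0.03 for Esam (-2.01 to 2.07).

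Pecam1 varied less, at 6.81, 28.0, 24.0 and 29.6 FPKM in controls and 17.8, 21.1 and 28.4 FPKM in mutants. Only control 1 stood apart, and the log2 difference was 0.18 (-0.9992 to 1.35). Cldn5 was at 0.164, 0.805, 2.90 and 7.15 FPKM in controls and 2.05, 1.64 and 2.47 FPKM in mutants, with its highest value in control 4. Its log2 difference was 0.09 (-1.49 to 1.66).

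Emcn was at 1.81, 20.2, 5.22 and 3.68 FPKM in controls and 9.01, 1.54 and 16.8 FPKM in mutants, a log2 difference of 0.25 (-1.79 to 2.29). Egfl7 was at 2.50, 151, 77.7 and 53.2 FPKM in controls and 28.8, 20.7 and 158 FPKM in mutants. Control 1 was lowest and control 2 and mutant 3 were highest, and its log2 difference was 0.27 (-2.91 to 3.45).

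The members were high and low in the same libraries. Control 1 was the lowest control for 10 of 10 genes and control 2 the highest for 8 of 10, while mutant 2 was the lowest mutant for 9 of 10 and mutant 3 the highest for 9 of 10. The 10 genes summed to 18.2, 279.8, 136 and 126 FPKM in controls 1 to 4, and to 96.4, 52.4 and 289 FPKM in mutants 1 to 3. So the highest control and the highest mutant were alike, and the 2 lowest libraries belonged to different genotypes. Without control 1 the median log2 difference was -0.52, and without mutant 3 it was -0.63, so these libraries decided its direction.

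The mesenchymal markers, and less clearly the erythroid ones, moved with the same libraries. Mesenchymal markers summed to 77.9 FPKM in control 1 and 68.8 FPKM in mutant 2, against 160 to 186 FPKM in the other 5 libraries. Erythroid markers were highest in the same pair, at 4189 and 1778 FPKM, against 603 to 1728 FPKM elsewhere, so mutant 2 hardly stood apart. Acinar markers differed between the genotypes, at 29617 to 42767 FPKM summed in controls and 86855 to 99161 FPKM in mutants, though none of the 10 acinar genes passed the adjusted test. Ctrb1 led these sums in all 7 libraries, and the other 9 genes summed to 3899 to 5744 FPKM in controls and 8533 to 12412 FPKM in mutants. The FPKM total of all features also differed without overlap, at 2.22e+06 to 3.52e+06 in controls and 3.71e+06 to 6.24e+06 in mutants. How far this scale made the acinar difference was not tested. The number of genes above 0 was 20576 in control 1, 20918 in mutant 2 and 19199 to 20197 in the others. The part of other cells or of library quality in these values was not tested.

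**Figure D4:**
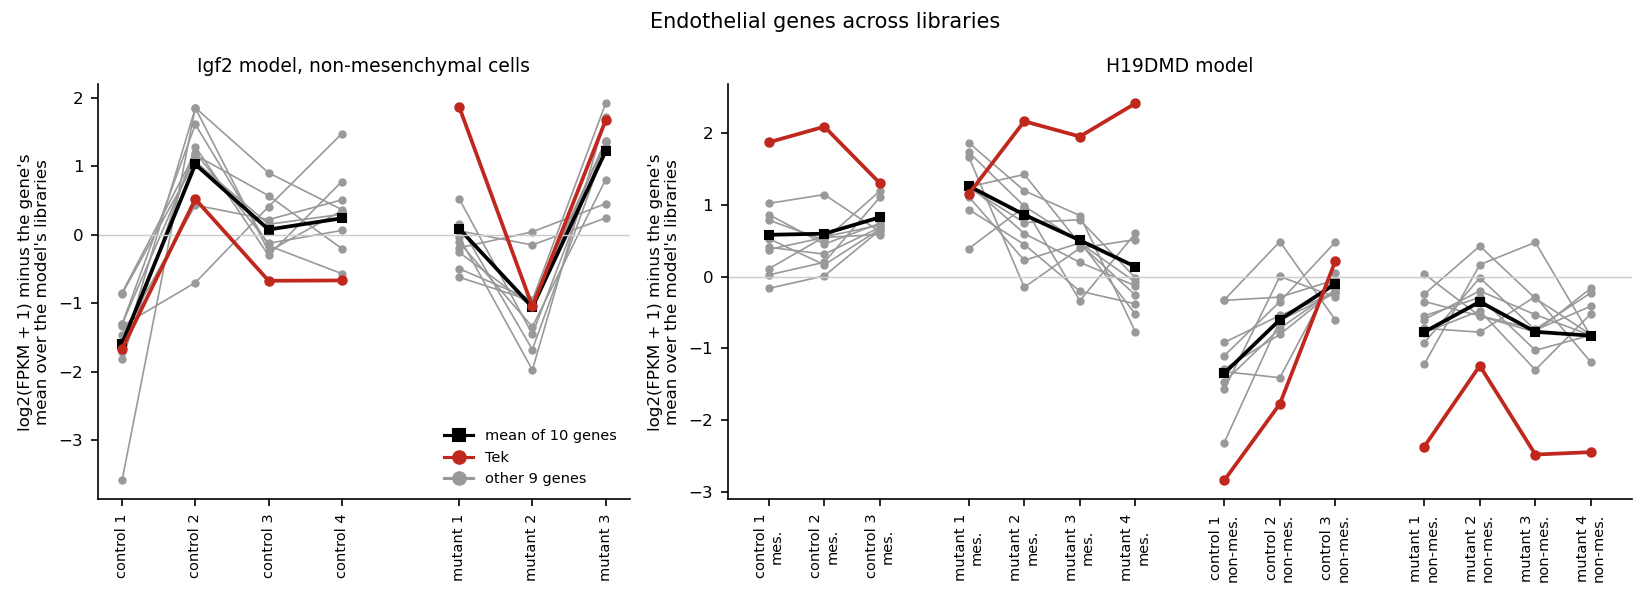
Log2(FPKM + 1) of each endothelial gene in each library, less the gene's mean over all libraries of its model, for the Igf2 model (left, 7 libraries) and the H19DMD model (right, 14 libraries); black squares are the mean of the 10 genes, red is Tek, grey the other 9, and lines only link a gene's values within a group. Control 1 and mutant 2 lie low and control 2 and mutant 3 high in the Igf2 model, and in the mesenchymal H19DMD mutants Tek is lowest where the mean is highest and highest where it is lowest.

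Genes with the closest profile over the libraries were ranked by the root mean square difference of centred log2 values, among genes that averaged 5 FPKM or more, with the members left out. Over the 7 Igf2-model libraries the nearest to the mean of the members were Cd34 (0.24), Ptprb (0.27), Col15a1 (0.28), Sparcl1 (0.30), Nrp1 (0.32), Cav1 (0.32), Ccl24 (0.33), Gpr116 (0.35), Adamts7 (0.36) and Cd93 (0.37), where the median gene was at 1.01. Cd34, a sialomucin of endothelial and other progenitor cells, was at 3.56, 15.8, 8.96 and 10.3 FPKM in controls 1 to 4 and 8.64, 3.05 and 24.6 FPKM in mutants 1 to 3. It was low in the same pair of libraries. Ptprb, the endothelial receptor phosphatase that acts on Tek, was at 1.26, 12.3, 5.73 and 6.46 FPKM in controls and 3.79, 1.36 and 8.68 FPKM in mutants.

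Over the 14 H19DMD libraries, which span both sorted fractions, the nearest genes were Prrg3 (0.23), Ptgfrn (0.24), Fzd1 (0.25), Man2a2 (0.25), Ski (0.27), Epas1 (0.28), Selm (0.29), Trim2 (0.29), Tgfb3 (0.29) and Tgfb2 (0.29), against a median gene at 0.92. Epas1, a hypoxia-inducible factor of endothelium, was the only one of these in the endothelial lists. Tek was the member farthest from the members' mean, at 1.35, and its nearest member, Esam, was 1.30 away. By contrast Cdh5 and Emcn were 0.34 apart and Kdr and Flt1 0.38. In the Igf2 model Esam lay nearest to Cdh5 at 0.39, Emcn to Cdh5 at 0.43 and Kdr to Tie1 at 0.44, and the nearest member to Tek was Emcn at 0.72. These distances are descriptions, since the libraries share their sort and their table.

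Ratios within a library, which do not depend on its scaling, were chosen after the values were seen and are given with no test. Tek over Tie1 was 6.91 to 24.1 in mesenchymal controls and 7.91 to 31.8 in mesenchymal mutants, above the 0.25 to 6.23 and 0.45 to 3.62 of non-mesenchymal controls and mutants. In the Igf2 model it was 0.56 to 0.93 in controls and 2.78 to 7.30 in mutants. These ratios are a few of many that could have been picked, and no member by itself separated the genotypes. Tek over Cdh5 was likewise 0.18 to 0.29 in the Igf2 controls and 0.66 to 1.76 in the mutants. The non-mesenchymal H19DMD libraries overlapped for both ratios. Kdr over Flt1 had medians of 0.75 to 1.01 in the 6 groups, though mutant 2 of the Igf2 model reached 6.53 with Flt1 at 0.290 FPKM. Pecam1 over Cdh5 was 1.50 to 2.04 in mesenchymal controls and 0.918 to 1.93 in mesenchymal mutants. It was 0.732 to 3.34 and 1.63 to 2.94 in non-mesenchymal H19DMD controls and mutants, and 0.840 to 3.58 and 1.28 to 10.7 in those of the Igf2 model, so all groups overlapped between genotypes.

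**Figure D5:**
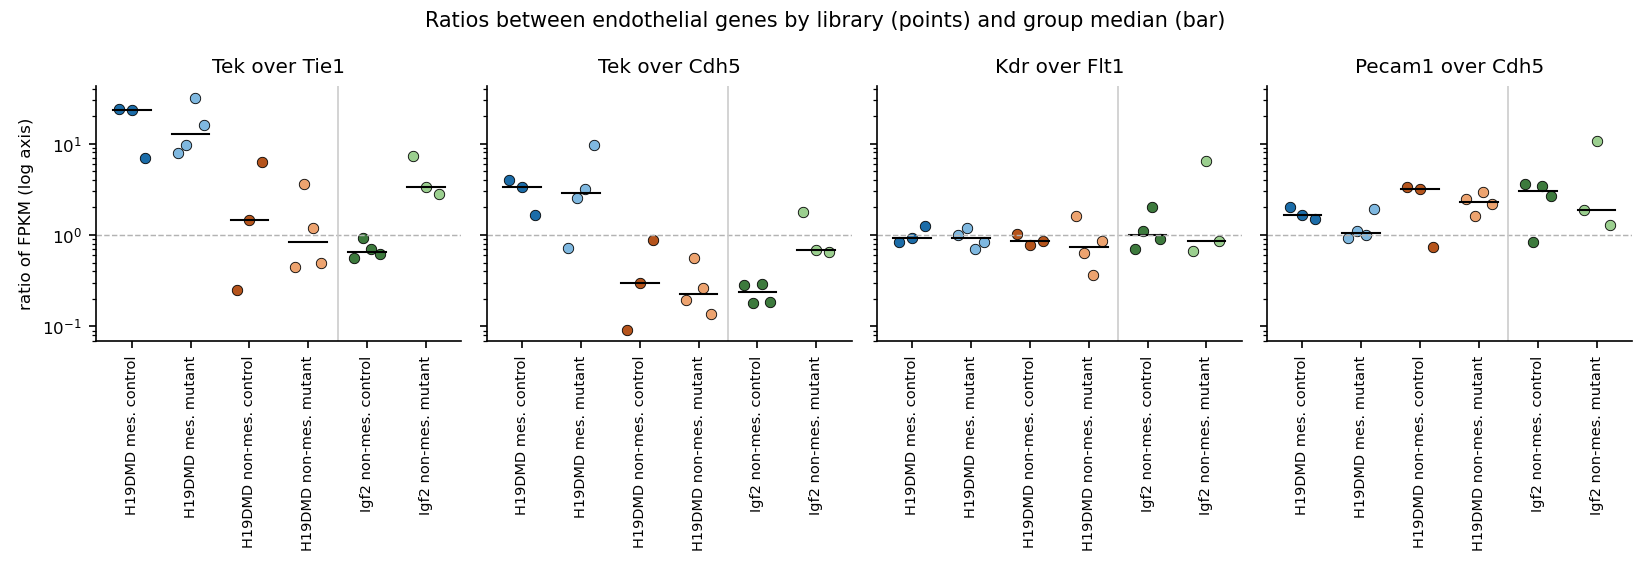
Ratio of FPKM (log axis) for 4 pairs of endothelial genes in each library (points) by group, with the group median as a bar and a dashed line at 1; labels are as in the plot of levels by library. Tek over Tie1 is above 6.9 in all 7 mesenchymal libraries and runs from 0.56 to 7.30 over the 7 libraries of the Igf2 model.

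The order of mean levels was partly shared by the groups. Egfl7 led everywhere, from 15.6 ± 9.71 FPKM (SD, n = 3) in non-mesenchymal H19DMD controls to 71.1 ± 61.8 FPKM (SD, n = 4) in the Igf2 controls. Pecam1 was second in all 4 non-mesenchymal groups and followed Tek in the mesenchymal ones. In mesenchymal controls the ranges of Tek and Pecam1, of Pecam1 and Cdh5, and of Kdr and Cldn5 did not overlap, while Cdh5, Emcn, Esam, Flt1 and Kdr, with means of 8.36 to 10.7 FPKM, each overlapped the next in order. In non-mesenchymal mutants only Egfl7 over Pecam1 and Pecam1 over Flt1 were without overlap, and in both Igf2-model groups every neighbour overlapped. Tie1 and Cldn5 held the last 2 places in all groups except the non-mesenchymal Igf2 controls, where Tek was last at 2.68 ± 2.34 FPKM (SD, n = 4).

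The wider endothelial programme was followed through lists of other genes. Of 24 other endothelial surface and junction genes, 23 were tested between the fractions in H19DMD controls. Of these, 10 were higher in mesenchymal cells and none lower, where 12.4% of all genes were called higher and 10.3% lower, with a median log2 difference of 1.15. Cd34 (116 against 4.50 FPKM) and Procr, the endothelial protein C receptor (48.5 against 1.48 FPKM), had the largest differences, 4.41 and 4.31 (adjusted p = 9.19e-05 and 1.19e-04, limma). Both are also known from fibroblasts or progenitor cells. Esm1, the lowest of the 23 tested, was at 1.26 against 0.860 FPKM (adjusted p = 0.896, limma). In mutants 13 of 22 tested were higher and none lower, against 13.5% and 15.1% of all genes.

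Endothelial transcription factors went both ways. In controls 5 of 16 tested were higher in mesenchymal cells and 3 lower, with a median log2 difference of 0.36. The flow-induced factor Klf4 (73.5 against 11.99 FPKM) and the venous factor Nr2f2 (22.5 against 1.09 FPKM) were higher by 2.53 and 3.50 (adjusted p = 5.61e-04 and 5.71e-04, limma). Hhex, which also marks foregut and islet cells, was lower, with a log2 difference of -3.66 (adjusted p = 4.40e-04, limma). Sox18 did not pass, at 3.40 against 1.86 FPKM, and Etv2, an early inducer of the lineage named here after its values were seen, was listed at 0 in all 21 libraries.

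Other genes of the VEGF and angiopoietin pathways, which are ligands, co-receptors and the receptor Flt4, were tested for 10 of 11 listed genes in controls, of which 5 were higher in mesenchymal cells and 2 lower. Figf, which encodes VEGF-D, a ligand of Flt4, was at 39.0 FPKM in mesenchymal and 0.514 FPKM in non-mesenchymal controls, a log2 difference of 4.73 (adjusted p = 9.19e-05, limma). Nrp1, the co-receptor of Kdr, was at 45.1 against 6.69 FPKM and higher by 2.58 (adjusted p = 3.90e-04, limma). Vegfa, the principal ligand of Kdr, was higher outside the mesenchyme, at 64.6 against 134 FPKM, a log2 difference of -1.04 (adjusted p = 0.0259, limma). Flt4, the lymphatic VEGF receptor, was at 2.19 against 1.28 FPKM (adjusted p = 0.413, limma). In mutants 5 of 10 were higher and 2 lower.

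Arterial and venous genes gave 4 higher and 1 lower of 10 tested in controls. Jag1, a Notch ligand, was higher by 1.68 (adjusted p = 0.00806, limma) and Cxcr4, a chemokine receptor that leukocytes also carry, lower, at -2.80 (adjusted p = 0.0119, limma). Notch1 was at 26.3 and 26.8 FPKM and the arterial ligand Dll4 at 2.26 and 1.02 FPKM, both with overlapping groups. Of 7 lymphatic genes 2 were higher and 2 lower: Pdpn, a gene of mesothelium too, differed by 3.07 and Prox1 by -4.60, a gene also of islet and exocrine progenitors (adjusted p = 8.41e-04 and 9.19e-05, limma). In mutants 2 of 10 arterial and venous genes were higher and 1 lower, and 1 of 6 lymphatic genes was higher and 2 lower. Of all genes, 12.4% were called higher and 10.3% lower in controls, and 13.5% and 15.1% in mutants.

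Markers of cells that share surface genes with endothelium were read for comparison. Of 11 leukocyte genes 10 were lower in mesenchymal controls and none higher, with Laptm5, the most abundant, at 1.76 FPKM in mesenchymal and 159 FPKM in non-mesenchymal controls. Of 8 platelet genes only 3 passed the filter, with Pf4, a platelet chemokine, listed at 0 in all mesenchymal controls and at 42.0 FPKM in non-mesenchymal ones, and Itgb3 higher by 2.16 (adjusted p = 0.00258, limma). All 11 pericyte and smooth muscle genes were higher, led by Acta2 at 373 against 2.28 FPKM, as were all 8 mesenchymal and all 4 mesothelial genes tested. Erythroid genes were lower for 4 of 7 tested, acinar for 9 of 9, endocrine for 7 of 7, ductal for 4 of 7 and neural for 3 of 4, with none higher. In mutants the counts were 10 of 11 leukocyte genes lower, 10 of 11 pericyte and smooth muscle genes higher, and for platelet genes 1 higher and 1 lower of 3. In all 3 mutant comparisons no gene of any of these lists passed the test.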

How the data were processed

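RNA from sorted pancreas cells was amplified and sequenced, and the authors deposited FPKM values per gene, in a Cufflinks layout per the file headers, in 1 table for each model. TopHat2 2.0.8, Cufflinks 2.2.1 and GRCm38 appear in the submitters' processing notes without their roles. The depth of the libraries is unknown from FPKM, so no counting intervals are given, and values were tested only within a table.

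The files' columns were matched to samples by name. Differences of log2(FPKM + 1) were tested with limma 3.58.1 (lmFit, eBayes with trend) in R 4.3.3, over genes averaging 1 FPKM or more in the libraries compared, with Benjamini-Hochberg adjustment over all genes tested and a threshold of 0.05. Only the groups compared entered a fit, except for the interaction. The fit was tested on simulated data. Values and ratios were summarised with Python 3.11.15 and pandas 2.3.3. The 10 genes and the other lists were chosen with earlier results of these data known. The rule for naming genes of another list took, among its genes tested between fractions in controls, those of largest and smallest mean and the 2 called with the largest fold change. Not every gene it gave is named, and lists of other cell types are given mainly as counts and sums. Alternatives covered the pseudocount, the filter, scaling, the variance trend, a common fit, the replicate block and each library left out. An average over controls and mutants was added after the data were seen. Promoters came from RefSeq (GRCm38.p6) and gene positions from GENCODE M21.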

Additional observations from a re-analysis of the deposited data

Results flagged for a closer look

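Among 30 pairs of a gene and a group of 4 libraries, 1 held a library far from the rest, where chance flags about 1 in 20. It was Tek in the non-mesenchymal H19DMD mutants, whose highest library, mutant 2, was at 2.83 FPKM while the other 3 were at 0.628 to 0.756 FPKM. The same library had the highest value of its group for 6 of the 10 endothelial genes.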

How the results depend on the processing

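In both fraction comparisons all 10 differences stayed positive under every alternative run. The number of members called in controls was 4, against 1 with the replicate block and 0 to 4 with 1 library left out, and 9 in the separate fit averaged over 14 libraries. In mutants it was 4, against 2 with no filter on low values and 1 to 6 with 1 library left out. Such counts can include members not among the 4. Tek in the mutants passed under all 16 alternatives, with adjusted p of at most 0.0013 (limma).

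The 3 mutant comparisons and the interaction gave 0 member calls under every alternative, but many signs turned. Rescaling over features of at least 200 nt moved the median of all genes by -0.69 in the Igf2 model and by 0.24 in the non-mesenchymal H19DMD cells. It gave log2 differences in the Igf2 model of -0.60 for Pecam1, -0.53 for Esam, -0.51 for Egfl7, -0.37 for Emcn and -0.39 for Cldn5. It gave 0.0190 for Tie1 and 0.19 for Emcn in non-mesenchymal H19DMD cells, and -0.11 for Pecam1 in the interaction. Beyond that shift, the cause was not tested.

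With 1 library left out, the Igf2-model differences ran from -0.82 to 0.66 for Cdh5, -0.35 to 0.59 for Cldn5, -0.89 to 0.93 for Egfl7, -0.36 to 1.05 for Emcn, -0.64 to 0.57 for Esam, -1.07 to 0.77 for Flt1, -0.85 to 0.32 for Kdr, -0.29 to 0.37 for Pecam1 and -0.89 to 0.18 for Tie1. In mesenchymal H19DMD cells they ran from -0.15 to 0.61 for Cdh5, -0.20 to 0.41 for Cldn5, -0.0435 to 0.83 for Emcn, -0.45 to 0.11 for Esam and -0.0594 to 0.42 for Tek. In non-mesenchymal H19DMD cells they ran from -0.53 to 0.26 for Emcn, -0.10 to 0.62 for Esam, -0.0407 to 0.51 for Kdr, -0.54 to 0.0017 for Pecam1 and -1.35 to 0.17 for Tek. In the interaction they ran from -0.23 to 0.37 for Cldn5, -0.98 to 0.0616 for Egfl7, -0.30 to 0.24 for Pecam1 and -0.0056 to 1.52 for Tek.

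Groups shared replicate numbers, but same-numbered libraries hardly deviated together, and not every library was closest to its own number. Across genes r was -0.0506 to 0.0329 between genotypes and 0.00738 to 0.0674, always positive, between fractions. The summed endothelial level rose from control 1 to 3 in both fractions (125, 135 and 159 FPKM, and 24.0, 57.1 and 71.9 FPKM). In mutants library 4 was lowest in both fractions, while the highest was 1 in mesenchymal and 2 in non-mesenchymal cells. A pairing of the fractions by number was therefore not settled. With the replicate block, 1 member was called between fractions in controls (Kdr) and 3 in mutants (Tek, Esam and Egfl7), and the log2 difference of Esam between mesenchymal H19DMD mutants and controls turned from -0.21 to 0.11. Over the whole table, the block left 2 of 11 calls in the Igf2 model and 5 of 11 in the non-mesenchymal H19DMD cells. A common fit of the 4 H19DMD groups left 5 of 11 calls in mesenchymal and 1 of 11 in non-mesenchymal cells, and leaving out 1 library gave 14 to 37 calls in the Igf2 model. The Igf2-model mesenchymal comparison was not run, and a common fit adds nothing to the Igf2 table or the interaction.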
